A study of Mus musculus with 3 samples.

Results

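The cytosolic ribosomal protein genes encode the protein parts of the ribosome that translates nuclear-encoded mRNA. They were taken by symbol: Rpl or Rps with a number and an optional suffix, or Rplp0, Rplp1, Rplp2 and Rpsa, with at least 1 isoform annotated as protein coding. This gave 84 genes of 22028 annotated protein-coding genes and of 55536 annotated genes in all. Of these, 43 encode canonical proteins of the large subunit, 31 canonical proteins of the small subunit and 3 the ribosomal stalk. The other 7 are paralogs of canonical members. A further 6 matching symbols, such as Rps4l and Rpl6l, had no protein-coding isoform and were not counted as members, and the rule does not reach components with other names, such as Fau and Rack1.

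The measured RNA came from the chromatin fraction of macrophages grown in culture from the bone marrow of C57BL/6J mice, and ribosomal RNA was depleted before sequencing. All 3 libraries were biological replicates of 1 condition: cells held in 100 ng/ml Lipid A (the Toll-like receptor 4 agonist of lipopolysaccharide) for 12 h, left without it for 12 h and given 100 ng/ml Lipid A again for 120 min. Labelled RNA inputs were 1 µg for replicate 1, 250 ng for replicate 2 and 500 ng for replicate 3. Cells without Lipid A and the cytoplasmic RNA of these cells were not analysed here. Each value is thus a level in the chromatin fraction, not a response and not an enrichment over the cytoplasm. The labels name 1 common donor entry and do not say whether separate animals were used, so an SD covers the variation among these 3 libraries, part of which may be technical.

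Ribosomal proteins are made in the cytoplasm in matched amounts and imported into the nucleolus, where they join ribosomal RNA. Their genes are short, and in growing cells their spliced mRNAs are among the most abundant and stable of the cytoplasm. Many of the genes carry small nucleolar RNAs (snoRNAs, guides for chemical modification of ribosomal RNA) in their introns, and their mRNAs usually begin with a pyrimidine tract, the TOP element, through which translation follows growth signals. A chromatin fraction holds transcripts that are still being made or have not been released. For this family it can therefore hold both spliced mRNA and RNA that still holds introns. Spliced mRNA that stays with chromatin and mRNA carried over from the cytoplasm cannot be told apart here.

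Values come from the authors' alignment-based tables unless called read-based, which marks their other deposited quantification of the same reads. Replicate 1 was the shallowest library, with 10293545 expected counts against 17820066 in replicate 2 and 17548564 in replicate 3. It also had the shortest fragments: transcript length minus effective length, which follows fragment length, had a median of 149.7 bases there, 256.8 in replicate 2 and 251.3 in replicate 3. Over the expressed members, log2 TPM correlated at r = 0.86 for replicates 1 and 2, at 0.83 for replicates 1 and 3 and at 0.96 for replicates 2 and 3 (Pearson, across 80 genes that are not independent, so without a p). All 7 macrophage markers reached a value of 1 in each library in TPM, an abundance scaled to transcript length, and summed to 801.6 to 1228. Of 16 markers of neutrophils, T cells, B cells, erythroid cells and fibroblasts, 1 did so, Alas2 at 4.20 ± 1.47, and the 16 summed to a TPM of 5.42 to 8.47. Cd3e, Hba-a1, Hbb-bs, Ly6g and Cd2 were among those with no counts.

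Almost the whole family was detected in the chromatin fraction, at moderate levels. A TPM of 1 or more in every one of the 3 libraries was reached by 80 of 84 members, against 42% of protein-coding genes, and all 77 canonical members were among them. The 4 that did not were the paralogs Rpl3l, Rpl10l, Rpl39l and Rps27l, the last missing it in replicate 1 alone. Genes meeting that threshold throughout are called expressed below, 9245 in all. The median member stood at a TPM of 16.6, 26.2 and 24.6 in replicates 1, 2 and 3, and the median expressed protein-coding gene at 9.95, 13.9 and 12.1. Members thus lay 1.86 ± 0.19-fold (SD, n = 3) above the median expressed gene, or 0.89 ± 0.15 on the log2(TPM + 0.1) scale, with the same direction in each library, though by CPM (given next) they lay below it. Against only the genes with a TPM of at least 5, the difference was 0.046, and with means in place of medians 0.52. Above that median gene in every library stood 61 of 84 members, against 44% of expressed genes. In bulk RNA such as this, fewer cells of a type and less RNA per cell cannot be told apart.

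The direction depends on the length scaling. By CPM, counts scaled to the library total without regard to length, the median member had 12.3 ± 0.48 and the median expressed gene 22.2 ± 0.24, so members reached 0.554 ± 0.022 of it (SD, n = 3). The median effective length was 538 ± 38.2 bases for expressed members and 1945 ± 28.5 for expressed genes. All 84 members together took 0.133% of the counts of replicate 1 (95% Wilson interval 0.130 to 0.135), 0.155% of replicate 2 (0.154 to 0.157) and 0.153% of replicate 3 (0.152 to 0.155). The intervals cover counting error only. By TPM the family held 0.166%, 0.273% and 0.246% of the library total. Members were not uniform: expressed members ran from a mean TPM of 6.29 to 107.7, a 17.1-fold range, with 71 members between 10 and 100, 2 above 100 and 11 below 10.

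**Figure D1:**
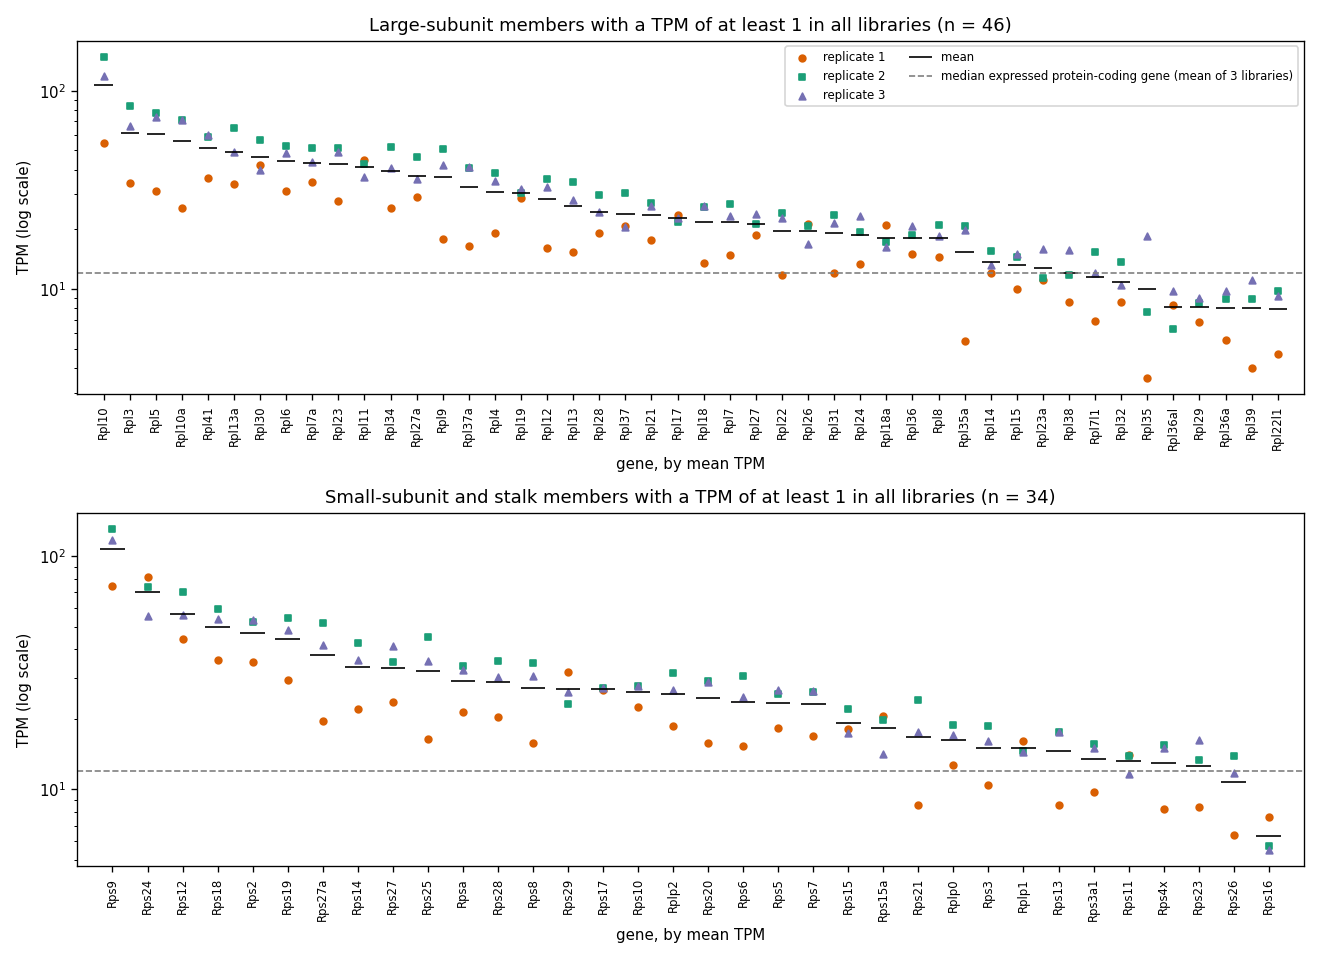
TPM (log axis) of each of the 80 expressed members, large subunit above and small subunit with stalk below, ordered by mean; points are the 3 libraries, short bars their mean, and the dashed line the median expressed protein-coding gene (mean 12.0). Rps9 and Rpl10 lead at 108 and 107, and replicate 1 is the lowest point for 66 of the 80.

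In the large subunit the highest member was Rpl10, whose protein joins the particle late and sits near the peptidyl transferase centre. It lies on chrX:74270812-74273135 (plus strand, mm10, as are all positions here) and had a TPM of 54.2, 148 and 118 in replicates 1, 2 and 3, or 107 ± 48.1. Rpl3, a core protein of the same centre, had 34.2, 83.4 and 66.5. Rpl5, which carries the smallest large-subunit ribosomal RNA into the particle and can bind Mdm2, had 31.0, 77.2 and 74.0. Rpl10a, the protein of the L1 stalk, had 25.6, 70.8 and 70.8. In these 4 genes replicate 1 was lowest, more than 2-fold below replicate 2. Rpl41, which encodes a very short basic peptide, followed with 36.5, 58.4 and 59.9.

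The lowest canonical large-subunit genes in the alignment-based table were Rpl29, Rpl36a and Rpl39. Rpl29 had a TPM of 6.79, 8.46 and 8.96, from 48.8 to 81.9 counts. Rpl36a had 5.54, 8.92 and 9.74. Rpl39, whose protein lines the exit tunnel for the nascent chain, had 4, 8.92 and 11.1, from 18, 39 and 54 counts. Their means of 8.07, 8.07 and 8 differed by less than the SD of each, which was at least 1.14. In the read-based table Rpl29 had a mean of 12.8, Rpl36a 20.7 and Rpl39 21.6. Each thus stood over 1.5-fold higher there, and Rpl36a and Rpl39 were no longer among the lowest. The 43 canonical large-subunit genes had a median TPM of 23.1 ± 4.77 and held 0.0805 ± 0.0089% of counts.

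In the small subunit Rps9 was highest. Its protein lies near the mRNA entry channel, and the gene (chr7:3703993-3706897, plus strand) had a TPM of 74.8, 131 and 117, or 108 ± 29.4, above Rpl10 in replicate 1 and below it in the others. Rps24 was second with 81.7, 73.9 and 55.5, and unlike most members it was highest in replicate 1. Rps12 had 44.3, 70.0 and 56.1, and Rps18, a protein of the subunit head, had 35.8, 59.4 and 53.6. Rps2, which lies by the mRNA entry, had 35.2, 52.3 and 53.4. Rps12, Rps18 and Rps2 kept this order within each library, but in the read-based table Rps18 was the highest of them, at a mean of 53.0 against 30.7 for Rps12 and 33.2 for Rps2.

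At the low end of the small subunit, Rps23, a protein of the decoding centre, had a TPM of 8.45, 13.3 and 16.2, or 9.81, 25.1 and 31.6 read-based. Rps26, which lies at the mRNA exit, had 6.40, 14.0 and 11.8. Rps16, whose tail reaches the tRNA in the peptidyl site, was the lowest canonical member of the family at 7.65, 5.73 and 5.49, from 40.0 to 47.2 counts. The 31 canonical small-subunit genes had a median TPM of 24.5 ± 5.24, which differed from that of the large subunit by less than the SD of either, and held 0.0610 ± 0.0036% of counts.

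The stalk proteins recruit elongation factors to the large subunit, with 1 copy of Rplp0 as the base and pairs of Rplp1 and Rplp2 on it. Rplp2 had a TPM of 18.8, 31.6 and 26.8. Rplp0 had 12.7, 18.9 and 17.1, and Rplp1 had 16.1, 14.7 and 14.4. Rplp2 was the highest of the 3 in every library, while Rplp0 and Rplp1 changed order between libraries.

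Paralogs mostly stood below their canonical partners. Rpl3l, a muscle form, and Rpl10l, a testis form, had no counts in any library of the alignment-based table, where the limit that 0 counts allow (3 counts) is 2.91e-05% of counts in replicate 1. The read-based table lists Rpl10l at 0 as well but gives Rpl3l 1, 3 and 6 counts. Rpl39l, also known from testis, had 0, 2 and 1 counts. Rps27l, which p53 induces in other cells, had a TPM of 0.93, 3.41 and 1.86 from 4, 13 and 8 counts, and its partner Rps27 stood 25.4-, 10.3- and 22.1-fold higher. In the read-based table Rps27l had 3.29, 9.33 and 10.5, which passes the threshold in every library, and Rps27 stood 9.90-, 4.87- and 4.99-fold higher.

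The other paralogs passed the threshold in every library. Rpl22l1, which can replace Rpl22, had a TPM of 4.72, 9.72 and 9.22, and Rpl22 stood 2.50-, 2.50- and 2.47-fold above it. Read-based ratios were 5.28, 3.40 and 3.73. In the alignment-based table most of the Rpl22l1 level lay on retained-intron isoforms, at 100%, 79.6% and 58.7%. Its coding isoforms had a TPM of 0, 0 and 1.32 there, against 4.46, 7.19 and 6.73 for those of Rpl22. Read-based, retained-intron isoforms of Rpl22l1 took 82.8%, 53.0% and 39.7%, and its coding isoforms 0%, 32.8% and 28.0%. Rpl7l1 had 6.93, 15.3 and 12.1, with Rpl7 2.13-, 1.76- and 1.93-fold higher. Rpl36al had 8.26, 6.29 and 9.73, and its partner Rpl36a stood at 0.671, 1.42 and 1.00 times that level, so the order of this pair changed between libraries, whereas read-based Rpl36a was 1.71-, 6.26- and 3.73-fold higher. Near-identical copies can share reads, so the split within a pair is uncertain.

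Much of the signal was assigned to isoforms that keep an intron. Of the members' isoform TPM, retained-intron isoforms took 42.1%, 51.7% and 49.7% in replicates 1, 2 and 3, and protein-coding isoforms took 42.8%, 35.0% and 37.6%. The remainder was mostly processed transcripts, annotated isoforms without a reading frame, at 13.5%, 11.4% and 11.0%. Over all expressed protein-coding genes, retained-intron isoforms took 38.6 ± 1.33% and protein-coding isoforms 48.4 ± 0.16%. Only replicate 1, the library with short fragments, had as much coding as intron-holding signal in this family; the part of fragment length in that difference was not tested. A read inside an intron is counted to any annotated isoform that keeps it, so precursor RNA that is not yet spliced and a retained intron cannot be told apart.

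Gene by gene, 63 expressed members have an annotated retained-intron isoform. Its median share of the gene's TPM was 50.3%, 58.4% and 58.6%, or 55.8 ± 4.75%, against 47.0 ± 1.49% over the 5967 expressed genes with such an isoform. It was above the genes' median in each library, by 8.75 ± 3.31 percentage points, or by 27.9 with shares of isoform counts in place of TPM. Among the gene lists compared below, abundant macrophage mRNAs had a similar median share, 53.6 ± 4.09%. TOP-class genes had 48.3 ± 0.79%, mitochondrial ribosomal proteins 48.8 ± 8.02% and ribosome biogenesis factors 45.2 ± 1.62%. A mean share of at least 50% was found in 35 of 63 members, against 44.2% of genes. The protein-coding isoforms held under 50% in 50 of 80 expressed members, against 45.8% of genes. With protein-coding isoforms alone, the median member had a TPM of 6.64, 10.4 and 9.72, which is 1.52 ± 0.11 times the median of expressed genes treated the same way.

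**Figure D2:**
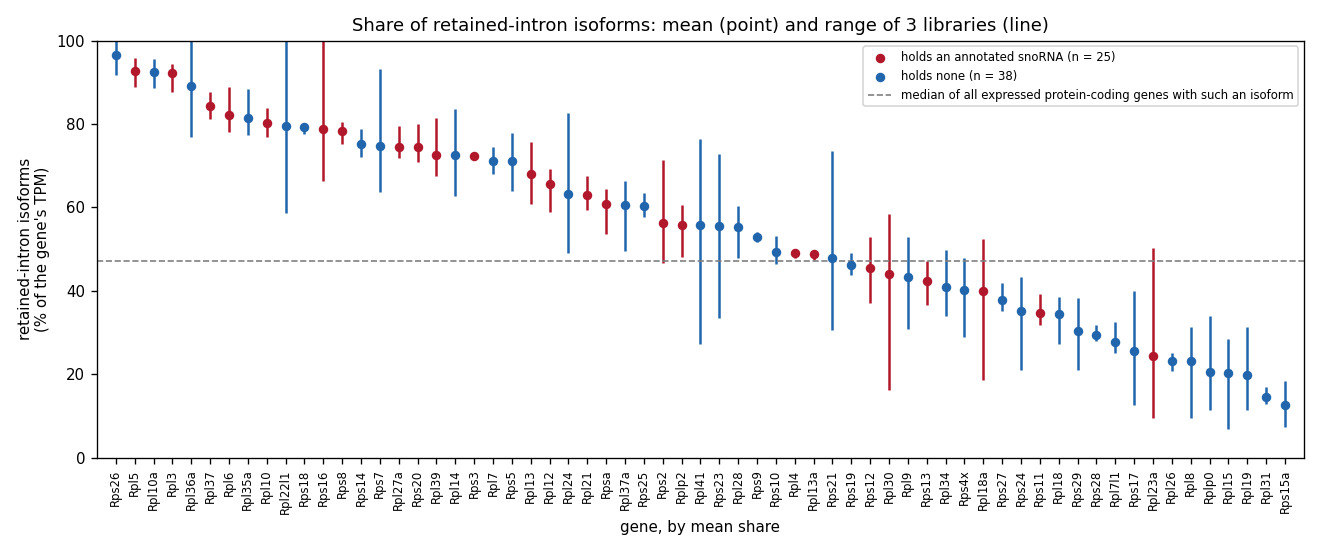
Share of each gene's TPM in retained-intron isoforms (percent) for the 63 expressed members that have one; points are means and lines the range of the 3 libraries, red for members with an annotated snoRNA, blue for members without, dashed for the median of all expressed genes (47.0%). Shares run from 12.6% to 96.6%, and some genes, such as Rpl41, vary widely between libraries.

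The 3 highest shares belonged to Rps26, Rpl5 and Rpl10a. In Rps26 retained-intron isoforms took 100%, 98.0% and 91.7% of a low level. In Rpl5 they took 88.9%, 93.4% and 95.9%, and its coding isoforms a TPM of 3.45, 5.09 and 3.05. In Rpl10a they took 88.6%, 93.1% and 95.7%, and its coding isoforms 1.93, 1.27 and 0.59. Thus Rpl5 and Rpl10a, among the 5 highest large-subunit genes in total, had little alignment-based signal on spliced coding isoforms. Read-based, coding isoforms took 9.78%, 19.8% and 19.1% of an Rpl5 TPM of 33.5, 63.5 and 63.9. In Rpl10a they took 4.67%, 2.95% and 1.28%, so the low coding signal was clearer there than in Rpl5. Rpl3 had a similar make-up at 87.7%, 94.4% and 94.5%, and Rpl10 had 76.9%, 83.7% and 79.7%. Both Rpl5 and Rpl10a share exon sequence with a gene on the other strand, and whether counting used strand is not given in the sources used here.

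The main coding isoform of a gene is here the protein-coding isoform with the highest mean TPM in these data. It need not hold all exons of the gene. In 42 members an annotated retained-intron isoform keeps a whole intron of the main coding isoform, with a median length of 287 bases, and all 42 of these introns begin with GT. The sequences around the start of that intron are shown for 3 of the 5 highest large-subunit genes, since they tell the intron-holding RNA from the spliced one. Each pair first gives the isoform that keeps the intron, with the last 15 exon bases in lower case and the first 15 intron bases in capitals. Below it is the spliced main coding isoform over the same exon end. Both come from the GENCODE M21 transcripts.
Rpl10, intron chrX:74271719-74271799, plus strand, intron kept: gccgtggtgtccctgGTAAGTAGTGACAAA
Rpl10, spliced: gccgtggtgtccctgatgctaagatccgaa
Rpl3, intron chr15:80081032-80081614, minus strand, intron kept: cttctataagaactgGTAAGAGGCTCTTGG
Rpl3, spliced: cttctataagaactggcacaagtctaagaa
Rpl5, intron chr5:107903404-107903665, plus strand, intron kept: ctgctggcccgcaggGTATGTATATAATAT
Rpl5, spliced: ctgctggcccgcaggcttctgaataggttt

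The isoform values for these introns are part of the retained-intron shares given above, so they restate those shares for single isoforms. The Rpl3 isoform with the kept intron had a TPM of 14.0, 40.9 and 35.4, against 1.12, 0.84 and 0.63 for the main coding isoform. The Rpl10 isoform had 11.5, 51.4 and 33.9, against 4.68, 14.9 and 13.5, and that of Rpl5 had 1.81, 6.61 and 7.05, against 1.87, 2.86 and 1.25. In Rpl3 and Rpl10 the intron-holding isoform was higher than the main coding isoform in every library, and in Rpl5 in replicates 2 and 3. All coding isoforms of Rpl3 together had 2.66, 2.15 and 1.40, and its main coding isoform has 4 exons. All coding isoforms of Rpl10 together had 12.5, 24.1 and 23.9, which in replicate 1 is above the intron-holding one. Of the 5 highest, Rpl10a was also higher in every library. Rpl41 had 4.50 against 23.2 in replicate 1 but was higher in replicates 2 and 3. For each gene the retained-intron isoforms were tried in order of mean TPM in these data, which favours a high value for the isoform shown.

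Rps9 and Rplp0 had a larger mean coding share than Rpl3, Rpl5, Rpl10 and Rpl10a. Rps24 and Rpl41 had mostly coding signal in replicate 1 alone. Rps9 held 53.0 ± 1.26% on retained-intron isoforms and a coding-isoform TPM of 31.2, 55.7 and 47.6. Rplp0 held 33.9%, 11.4% and 16.4% on retained-intron isoforms, so coding isoforms took 79.4% on average. Rps24 had a coding-isoform TPM of 55.3 in replicate 1 against 17.7 and 11.8, with retained-intron shares of 20.996%, 43.2% and 41.4%. Rpl41 likewise had 27.2% in replicate 1 and 76.5% and 63.5% in the others. Coding isoforms took 67.6%, 24.0% and 21.2% in Rps24 and 72.8%, 23.5% and 36.5% in Rpl41. A lower share in replicate 1 than in the others was found in 36 of 63 members, against 49.1% of genes. Rplp1, Rpl29, Rpl36 and Rpl36al have no annotated retained-intron isoform, so their share of 0 is fixed by the annotation. Across the 63 members the share and the mean TPM were weakly related (Spearman 0.12, a description across genes).

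Members that carry a snoRNA had the larger intron-holding share. This split was made after the values were seen and has no test, since genes are not replicates. The annotation places 58 snoRNAs within 30 members. The median retained-intron share was 70.9%, 67.6% and 64.4% in the 25 such members with a retained-intron isoform, and 45.8%, 50.4% and 48.4% in the 38 members without a snoRNA. The means were 67.6 ± 3.24% and 48.2 ± 2.29%, and the ranges over libraries do not overlap. The read-based values gave 63.7 ± 0.78% and 43.2 ± 4.94%. Members without a snoRNA were thus near the median of all expressed genes with such an isoform, 47.0 ± 1.49%, or 44.9 ± 1.78% read-based. Of the 58 snoRNAs, 23 lie inside an exon of a retained-intron isoform, where a read of the processed snoRNA could be counted to the host. Of these 23, 14 were listed at 0 in all libraries, and the 11 expressed hosts that hold only such snoRNAs there had a median share of 66.7 ± 4.76%. The labelled size range of 250 to 400 exceeds most snoRNAs, so a snoRNA listed at 0 may be present but unmeasured. Replicate 1 lay below that range, with a median length minus effective length of 149.7 bases, so the label may not describe it.

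The snoRNA counts themselves came from a few genes and from replicate 1. The 58 snoRNAs had 16994 counts in replicate 1, 2001 in replicate 2 and 2096 in replicate 3, whereas the members themselves had 13652, 27692 and 26924. Rps3 and Rpsa were picked here after their values were seen. Snord15b, within Rps3, had 14646, 1286 and 1378 counts, and Snord15a, in the same gene, had 1448, 409 and 379. Gm26448, within Rpsa, had 735, 211 and 269. Replicate 1 was thus highest for each of these snoRNAs although it was the shallowest library, and the part of its shorter fragments was not tested.

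The read-based quantification gave a similar order of levels. Over the 80 expressed members the Spearman correlation of mean TPM was 0.82, a description across genes that share the reads. The read-based median member had a TPM of 27.3 ± 4.36. The median log2 ratio of read-based to alignment-based TPM was 0.24 ± 0.07 for members and 0.39 ± 0.06 for all expressed genes, but with CPM in place of TPM the members' ratio was the higher, by 0.12. The read-based value was higher in every library for 47 of 80 members, against 71.4% of genes, and more than 2-fold apart in every library for 4 of 80, against 9.16%. By mean, 62 of 80 agreed within 1.5-fold, but the same share over all expressed genes was not computed, so this count describes the members only.

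The 3 members with the highest ratio and the 3 with the lowest show how far it ranged. Rpl35a had a read-based TPM of 27.8, 59.5 and 45.6 against an alignment-based 5.46, 20.8 and 19.9, a log2 ratio of 1.68 ± 0.59. Rpl36 had 39.7, 54.7 and 55.7 against 14.97, 18.7 and 20.8. Rpl39 had 11.7, 26.8 and 26.4, a log2 ratio of 1.45 ± 0.18. In the other direction, Rps12 had 24.1, 36.7 and 31.4, a log2 ratio of -0.88 ± 0.05, and Rpl12, a protein at the base of the stalk, had 9.65, 22.7 and 22.1, a ratio of -0.66 ± 0.08. Rpl9 was next at -0.51 ± 0.28. For all 6 genes the direction was the same in each library. In Rpl35a the retained-intron share also differed, at 81.5% alignment-based and 22.9% read-based by mean.

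**Figure D3:**
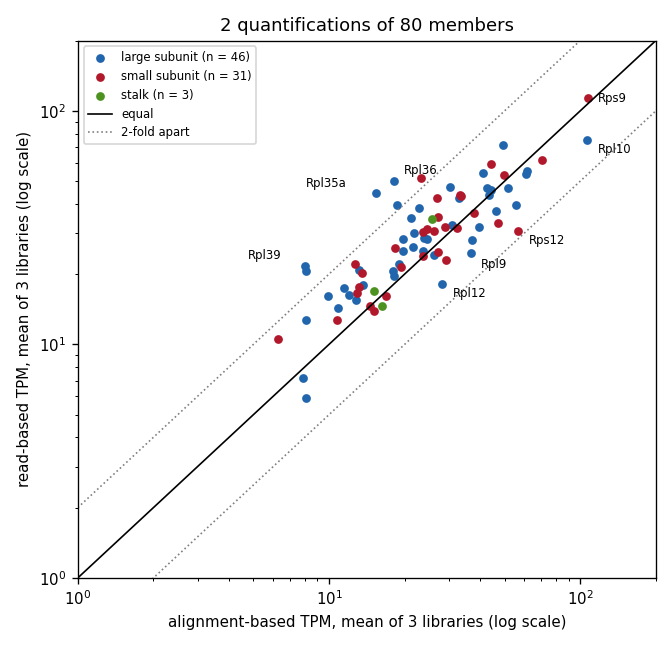
Mean read-based TPM against mean alignment-based TPM (both log axes, 3 libraries) for the 80 expressed members, coloured by subunit; the solid line marks equal values and dotted lines 2-fold differences. Most points lie between the dotted lines, with Rpl35a, Rpl36 and Rpl39 above them and Rps12, Rpl12 and Rpl9 below the line of equal values.

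The members varied between libraries by about as much as the median gene. The median SD of log2 CPM (TMM-normalised) was 0.26 for members and 0.25 for all expressed genes. Without replicate 1 these were 0.11 and 0.12. By TPM, replicate 1 was the lowest library for 66 of 80 expressed members, against 63.6% of genes. By log2 CPM it was lowest for 48 of 80, against 44.2%. Rpl35a spread most, with 114, 496 and 493 counts. Rps29 moved the other way, with 100, 61.2 and 76.0 counts, although replicate 1 had the fewest reads. Rpl35 came next, with 14.5, 39.3 and 57.0 counts. Rps29 and Rpl35 rest on few counts, and Rpl35 shares exon sequence with genes on the other strand.

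Against related gene lists the family stood in the upper middle. Mitochondrial ribosomal protein genes, which encode the separate ribosome of mitochondria, had a median TPM of 3.57, 5.41 and 5.18 over 78 genes, from Mrps28 at 1.08 ± 0.74 to Mrpl24 at 34.9 ± 8.05. The cytosolic members stood 2.22 ± 0.03 higher (log2), with a similar value in each library, which is 4.67-fold. Ribosome biogenesis factors, the proteins that make ribosomal RNA and assemble the subunits, had 5.65, 10.2 and 9.14 over 23 genes, from Nop10 at 1.28 ± 0.38 to Ubtf at 59.0 ± 15.9, and the members stood 1.44 ± 0.10 higher. On the CPM scale, without length, that difference became -0.092 ± 0.21.

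Translation factors and other genes of the TOP class, which share the start tract, were level with or above the members. Their median TPM was 22.3, 31.4 and 31.5 over 19 genes, from Eif3h at 8.19 ± 1.73 to Eef1a1 at 199 ± 34.9, and the members stood 0.34 ± 0.08 below them (log2). Abundant macrophage mRNAs had 146, 163 and 116 over 18 genes, from Cst3 at 7.33 ± 2.46 to Fth1 at 1086 ± 362. The members stood 2.66 ± 0.45 below these, which is 6.33-fold. Chromatin-held and nuclear RNAs, of which Rn7sk was highest at 22831 ± 5838 and Kcnq1ot1 lowest at 5.13 ± 1.85, had a median 65.4-fold above the members. The members thus ranked between the genes of mitochondrial ribosomes and the abundant macrophage mRNAs in all 3 libraries.

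**Figure D4:**
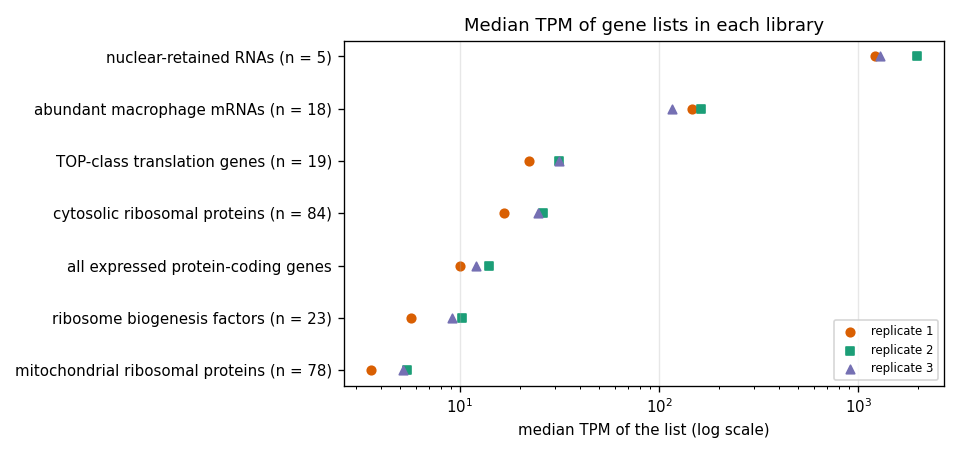
Median TPM (log axis) of the 84 members and of 5 other gene lists in each of the 3 libraries, with the median expressed protein-coding gene. The order of the lists is the same in each library, with the cytosolic ribosomal protein genes next above the median expressed gene (by CPM they lie below it) and next below the TOP-class genes.

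The start tract was looked for in the RefSeq promoter table (build GRCm38.p6), which has an entry for 64 of the 84 members. The motif was a C followed by 4 bases that are each C or T, on the strand of the gene only. It began exactly at the annotated start in 13 of 64 members (20.3%) and in 448 of 16522 protein-coding genes (2.71%). Within 10 bases of the start it was found in 39 of 64 members (60.9%) and in 35.2% of genes. Examples from the stalk and the small subunit are shown because they include the highest and the most intron-rich genes of those groups. Capitals mark the match nearest the start, extended downstream over the C or T bases that follow it.
Rplp2, chr7:141447641-141447666, plus strand: cagcgtcttcCTTTCgccgccggacg
Rps9, chr7:3704028-3704053, plus strand: cgccttgtctCTCTTTgtctcgggcc
Rps24, chr14:24490667-24490692, plus strand: cgctggggtcCTTCCTTgcgcgttga
Rps26, chr10:128626487-128626512, minus strand: gccgccggatCCTCTTTCgagtcttg
The marked match begins at the annotated start in Rplp2 and 3 bases before it in Rps9. It begins 1 base before the start in Rps24 and 4 bases after it in Rps26. In each of these genes C or T bases directly precede the capitals, so the whole pyrimidine run begins further upstream than marked. The marked stretches are matches of letters near an annotated start, and the deposited tables hold no measurement of where transcripts begin or of translation.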

How the data were processed

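Per the labels, each library was total RNA of a chromatin fraction after ribosomal RNA depletion. For each, the authors deposited a gene and a transcript table with expected counts and TPM, in the columns that RSEM writes per the file headers (alignment-based here), and another transcript table of estimated counts and TPM, laid out as kallisto does (read-based). Per the deposited notes the build is mm10 with GENCODE M21. Versions, settings and strand use: not given in the sources used here. TPM sums to a fixed total, so abundant short RNAs lower other values.

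Members, gene lists and alternatives were chosen with earlier results of these data known. Types and positions come from GENCODE M21. Expressed means a TPM of 1 or more in each of 3 libraries, and logs are log2(TPM + 0.1). Isoform shares are shares of summed isoform TPM, and read-based gene values sum isoforms. With 1 condition no test was made: values are means ± SD over 3 libraries, beside the same over all genes. Spread used expected counts rounded to whole numbers, at least 10 counts per gene, TMM (edgeR 4.0.16) and a prior of 0.5. That step was tested on simulated data. Named members are the 5 highest and 3 lowest per subunit, the stalk, paralogs with partners, the 3 highest and lowest read-based ratios, the 3 highest retained-intron shares and spreads, and the highest and lowest gene of each list. Alternatives included DESeq2 1.42.0 size factors. Python 3.11.15 and R 4.3.3 were used. Some items that these rules pick are not reported here.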

Additional observations from a re-analysis of the deposited data

How the results depend on the processing

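No paired analysis was possible because the series holds 1 group. The level above the median expressed gene (main 0.89, log2) was 1.13 and 0.046 with TPM thresholds of 0.5 and 5 for that gene, 1.28 with TPM rescaled over protein-coding genes, 1.08 read-based, 0.52 as a mean, and 0.60 with protein-coding isoforms only, which was added after seeing the data. It was -0.85 with CPM, which leaves out length. Leaving out each library gave 0.82 to 0.97. The share of counts was 0.221% of protein-coding counts, a smaller total, and 0.143% to 0.154% without each library.

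The members' retained-intron share stayed within 1 SD in all alternatives (54.4% to 58.5% without each library). Its excess over all genes was 27.9 percentage points by isoform counts, and 7.60 to 10.6 without each library. The read-based ratio was 0.12 with CPM and 0.21 to 0.28 without each library. The members' ratio minus that of all genes (main -0.16) reversed to 0.12 with CPM and was -0.17 to -0.15 without each library. The spread was 0.23 for genes of at least 500 bases, added after seeing the data; it was 0.11 to 0.28 for members and 0.12 to 0.25 for all genes without each library.

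The lead over mitochondrial ribosomal proteins (main 2.22) was 2.03 with a pseudocount of 1, 2.15 with expressed genes only, 1.97 read-based and 1.34 with CPM. The lead over biogenesis factors (main 1.44) was 1.16 read-based and -0.092 with CPM. The difference from the TOP class became -1.23 and that from abundant macrophage mRNAs -3.68 with CPM. Apart from the CPM results, the cause of these shifts was not tested. Of 35 named members, 12 moved by over 1.5-fold in the read-based table. The 35 include members named for the highest and lowest read-based ratio, so this count is not a rate for the family. Rpl35 (main TPM 9.95) was 5.63 without replicate 3, and Rpl39l, at 0 to 2 counts, 0.050 without replicate 2. Depth limits members with under 100 counts, such as Rpl39 and Rps16.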

Other observations

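Some members put most of their signal on isoforms annotated as processed transcripts, which have no reading frame. Rpl35 had 82.1% of its TPM there by mean and Rpl22 had 67.7%, and neither has an annotated retained-intron isoform. In Rps24 the share was 27.2% and in Rps23 24.3%. Ribosome components that the symbol rule does not reach, picked after their values were seen, lay within the range of the members: Rack1 had a TPM of 38.9, 60.7 and 55.3, and Fau had 22.3, 36.2 and 33.7. Both were lowest in replicate 1.

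Processed pseudogenes of the family, listed with -ps in the symbol, numbered 294. Of these, 197 had no counts and 31 had a TPM of 1 or more in each library. Together they held 949, 1079 and 1016 counts in replicates 1, 2 and 3, which is 6.50%, 3.75% and 3.64% of the counts of members and pseudogenes together. By the read-based table the shares were 7.25%, 5.51% and 5.22%. The highest was Rps2-ps9 with 163, 178 and 129 counts, followed by Rps2-ps11 with 69.2, 125 and 91.4. Reads shared with the parent genes can be split between copies.

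Exons of 23 members overlap exons of another gene that is not a small RNA, 19 of them a gene on the opposite strand. The same share over all genes was not computed, so these counts describe the members only. Among the named members these include Rpl5, Rpl10a, Rps18, Rps2, Rpl12 and Rpl35.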
